A study of Bos taurus with 40 samples.

Results

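Ketone bodies are made in the mitochondria of the liver from fatty acids and some amino acids, and are burned in muscle, fat, the brain and other organs. ACAT1 (acetoacetyl-CoA thiolase) joins acetyl-CoA units on the way in and splits acetoacetyl-CoA on the way out, BDH1 converts acetoacetate to 3-hydroxybutyrate and back in mitochondria, BDH2 is its cytosolic counterpart, and OXCT1 activates acetoacetate again in the tissues that use it. Long-chain fatty acids reach the mitochondrial matrix through the carnitine shuttle, in which CPT1 (CPT1A in liver, CPT1B in muscle) forms acylcarnitine at the outer membrane and CPT2 turns it back into acyl-CoA inside.

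The genes described here are those of ketone body synthesis and use together with the carnitine palmitoyltransferases. The rule named 7 genes (ACAT1, BDH1, BDH2, OXCT1, CPT1A, CPT1B and CPT2). Of these, 6 were found among the 13570 genes listed, and CPT1A was not analysed here.

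The libraries came from 10 Korean cattle, 5 cows and 5 bulls, slaughtered at over 22 months of age. By the labels, each animal gave a library of the pituitary gland, the longissimus dorsi muscle, the liver and the abdominal fat, so that 40 poly-A libraries formed 8 groups of 5 by sex and tissue. Animals are numbered from 1 to 5 within each sex, and no treatment was given in the labels. The comparisons asked whether males and females differed in a tissue (M1), over the tissues together (M2) or to a different degree between tissues, and how the tissues themselves differed.

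Reads on named genes ran from 5173092 to 19165864 per library, with a median of 10005607. Summed tissue markers stood in their own tissue and were low elsewhere: liver markers reached 120636 to 292815 counts per 1000000 reads (CPM) in liver and at most 476 CPM in other tissues, and muscle markers reached 109483 to 230333 CPM in muscle and at most 215 CPM elsewhere. Fat markers reached 6910 to 26206 CPM in fat, 81.9 to 1215 CPM in muscle and at most 58.9 CPM in liver and pituitary, and pituitary markers reached 82844 to 286085 CPM in pituitary and at most 388 CPM elsewhere. The liver library labelled bull 3 went against its label. It held 8694 reads of XIST, which is transcribed from the inactive X chromosome of females, and 0 reads of each of the Y-linked genes DDX3Y, USP9Y and ZFY. Its counts were closest to those of the liver of cow 4 (chi-square per degree of freedom 15.0, Pearson's r 0.989). The next closest liver pair, cows 1 and 2, had a chi-square of 43.9 per degree of freedom. Whether the libraries labelled bull 3 and cow 4 came from the same animal was not tested. The fat, muscle and pituitary libraries labelled bull 3 held 372, 211 and 742 reads of USP9Y. Counts of animals below pair tissues by label, so for bull 3 those with liver join libraries with opposite sex markers. The fat library of bull 5 held few Y-linked reads (23 of USP9Y) together with 18 of XIST. Its scaling factor was 0.963 where the other fat libraries had 1.26 to 1.46. It also had the highest liver marker sum among fat libraries (476 CPM against a median of 68.2). Of that sum APOA1 alone gave 337 CPM, and APOA1 was at most 289 CPM in the liver libraries themselves. Whether this library held liver RNA was not tested. Comparisons were also run without the liver library labelled bull 3 and without the fat library of bull 5, and those values are given where they differ.

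Levels below are CPM scaled by the trimmed mean of M-values (TMM) over the 40 libraries, and compare libraries for the same gene, not genes with each other, since no transcript lengths were used. In whole tissues, fewer cells of a type and less RNA per cell cannot be told apart.

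ACAT1, which acts in both synthesis and use, was highest in liver and fat and lowest in pituitary. Its level ran from 522 through a median of 720 to 958 CPM in liver (mean 725 ± 149, SD, n = 10), and from 365 through 551 to 727 CPM in fat (563 ± 122, SD, n = 10). In muscle it ran from 145 through 237 to 520 CPM (258 ± 106, SD, n = 10), and in pituitary from 57.7 through 69.1 to 97.0 CPM (74.7 ± 14.5, SD, n = 10). Liver and fat overlapped, and the liver level was higher in 7 of 10 animals. All 10 muscle libraries were below all 10 liver libraries, and every pituitary library was below every library of the other tissues. Pituitary was lower than liver by a log2 fold change of -3.28 (SE 0.183, adjusted p = 1.47e-18, edgeR's quasi-likelihood test) and lower than fat by -2.91 (adjusted p = 8.33e-17). Muscle was lower than liver (-1.49, adjusted p = 3.13e-09) and than fat (-1.12, adjusted p = 1.48e-06). The liver and fat levels themselves did not differ past the threshold (-0.37, SE 0.183, adjusted p = 0.0773). That difference passed it without the fat library of bull 5 (-0.51, adjusted p = 0.0194), and turned to 0.32 when libraries were scaled by their sizes alone.

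**Figure D1:**
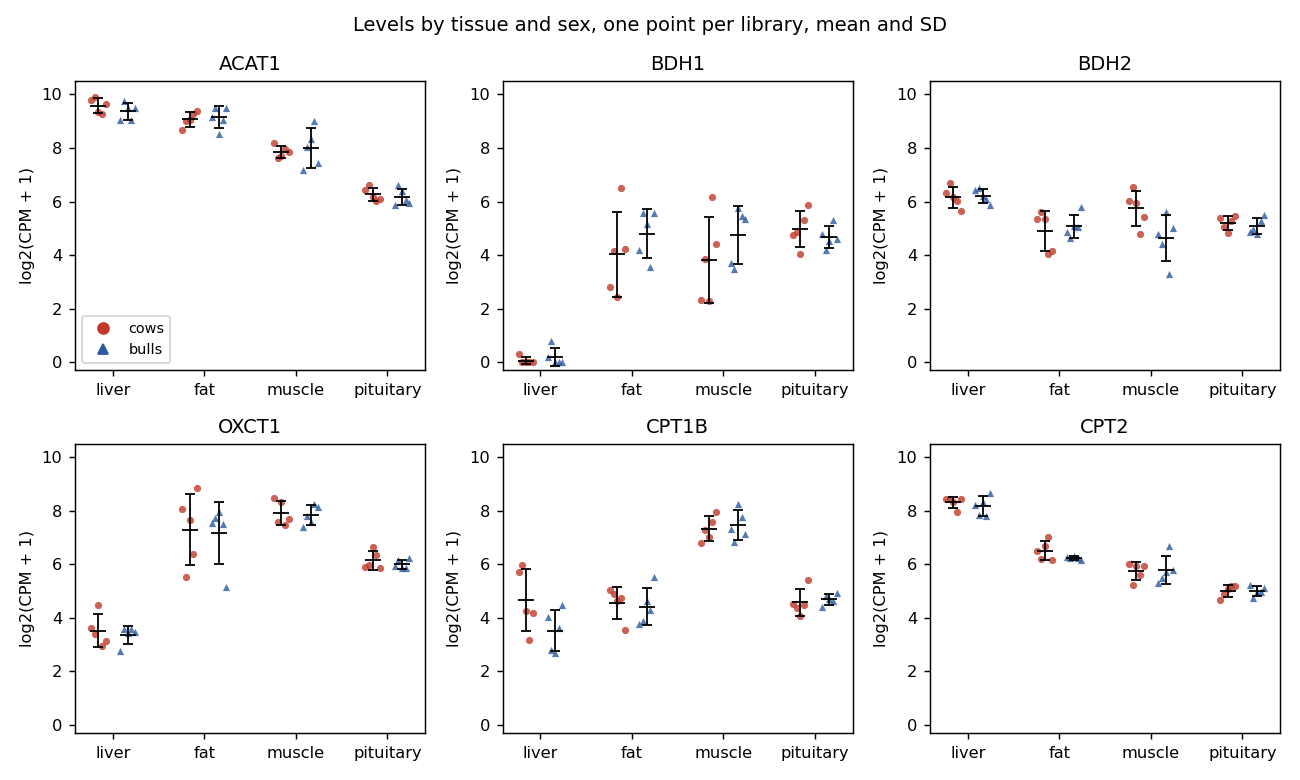
Levels of the 6 genes in each library, as log2(CPM + 1) on the vertical axis, by tissue on the horizontal axis; circles are cows, triangles are bulls, and black bars give the mean and SD of 5 libraries. BDH1 lies at or near 0 in the 10 liver libraries, OXCT1 is lowest in liver, CPT1B is highest in muscle and CPT2 is highest in liver.

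BDH1, the mitochondrial 3-hydroxybutyrate dehydrogenase, was nearly absent from these liver libraries. The 10 liver libraries held 8 BDH1 reads in all, 3 in cow 1, 1 in bull 1 and 4 in bull 2, with the other 7 libraries at 0. Over 110728206 reads this is 0.0722 per 1000000 reads (exact Poisson 95% interval 0.0312 to 0.142, which covers counting error only). In fat BDH1 was 5.92, 16.9, 4.42, 89.1 and 17.9 CPM in cows 1 to 5 and 17.1, 46.7, 34.5, 10.7 and 46.8 CPM in bulls 1 to 5. In muscle it was 4.0, 13.6, 3.93, 70.9 and 20.5 CPM in the cows and 12, 10.3, 53.2, 43.1 and 39.4 CPM in the bulls. Cow 4 held the highest value in both fat and muscle, and cows 1 and 3 the lowest. Pituitary values were closer together, from 15.4 through 26.3 to 56.8 CPM (29.2 ± 12.4, SD, n = 10), while the highest value was 20.1 times the lowest in fat and 18.0 times in muscle. Every fat, muscle and pituitary library was above every liver library. The fitted log2 fold changes over liver were 8.11 in fat (SE 0.995, adjusted p = 8.21e-13), 8.0 in muscle (adjusted p = 9.31e-13) and 8.13 in pituitary (adjusted p = 5.79e-13), and their size depends on the small number added to the liver reads. Among fat, muscle and pituitary, BDH1 levels did not differ past the threshold, with log2 fold changes of -0.11 from fat to muscle (adjusted p = 0.859), 0.02 from fat to pituitary (adjusted p = 0.977) and 0.13 from muscle to pituitary (adjusted p = 0.822). With library sizes alone the first was -0.97 (adjusted p = 0.0490) and the last was 1.14 (adjusted p = 0.0219).

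BDH2, the cytosolic dehydrogenase, was spread more evenly and was highest in liver. Its level in liver ran from 48.7 through 71.3 to 102 CPM (73.5 ± 15.8, SD, n = 10), in fat from 15.5 through 32.6 to 54.1 CPM (33.1 ± 12.6, SD, n = 10), in muscle from 8.78 through 36.7 to 91.4 CPM (42.0 ± 24.6, SD, n = 10) and in pituitary from 26.7 through 34.6 to 44.6 CPM (34.8 ± 6.72, SD, n = 10). Liver was above each other tissue in 10 of 10 animals, although the libraries of liver and fat, and of liver and muscle, overlapped. The log2 fold change from liver was -1.15 in fat (SE 0.246, adjusted p = 9.86e-05), -0.85 in muscle (adjusted p = 0.00300) and -1.08 in pituitary (adjusted p = 0.000191). With library sizes alone the fat and pituitary differences kept their sign but missed the threshold (-0.47, adjusted p = 0.121, and -0.25, adjusted p = 0.404). The remaining tissues were close, with log2 fold changes of 0.30 from fat to muscle (adjusted p = 0.314; -0.43 with library sizes alone), 0.06 from fat to pituitary (adjusted p = 0.838) and -0.23 from muscle to pituitary (adjusted p = 0.422; 0.65, adjusted p = 0.0341, with library sizes alone).

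OXCT1, succinyl-CoA:3-ketoacid-CoA transferase, is the enzyme that lets a tissue use acetoacetate, and the liver is known to have little of it. Liver OXCT1 ran from 5.72 through 9.88 to 21.5 CPM (10.4 ± 4.33, SD, n = 10). Muscle ran from 167 through 213 to 354 CPM (242 ± 68.2, SD, n = 10) and pituitary from 56.4 through 60.9 to 99.7 CPM (67.5 ± 14, SD, n = 10). Fat was the most variable tissue, with 270, 44.6, 202, 82.4 and 458 CPM in cows 1 to 5 and 183, 213, 250, 178 and 34.1 CPM in bulls 1 to 5, a 13.4-fold range (10.3-fold, from 44.6 CPM, without bull 5). The lowest fat value, in bull 5, was still above the highest liver value. No liver library reached any library of the other tissues, and every pituitary library was below every muscle library. OXCT1 was higher than in liver by a log2 fold change of 4.19 in fat (SE 0.281, adjusted p = 2.35e-15), 4.53 in muscle (adjusted p = 2.21e-16) and 2.69 in pituitary (adjusted p = 1.17e-10). It was lower in pituitary than in fat (-1.50, adjusted p = 1.20e-05) and than in muscle (-1.84, adjusted p = 3.16e-07). Fat and muscle overlapped and did not differ past the threshold (0.34, adjusted p = 0.293; -0.46 with library sizes alone).

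CPT1B, the muscle form of the outer-membrane transferase that controls fatty acid entry, was highest in muscle in 10 of 10 animals. Muscle values ran from 109 through 155 to 302 CPM (176 ± 62.9, SD, n = 10) and did not overlap any other tissue. Fat ran from 10.6 through 23.8 to 44.6 CPM (23.4 ± 10.3, SD, n = 10; the highest value was that of bull 5 and the next 32.1 CPM), pituitary from 15.6 through 22.9 to 41.7 CPM (24.6 ± 7.19, SD, n = 10) and liver from 5.48 through 16.2 to 62.0 CPM (21.6 ± 19.4, SD, n = 10). The log2 fold change of muscle was 3.09 over liver (adjusted p = 1.13e-10) and 2.92 over fat (adjusted p = 5.56e-10), and pituitary was lower than muscle by -2.84 (adjusted p = 5.93e-10). Liver, fat and pituitary overlapped and did not differ past the threshold, at 0.17 from liver to fat (adjusted p = 0.661), 0.25 from liver to pituitary (adjusted p = 0.507) and 0.08 from fat to pituitary (adjusted p = 0.846). With library sizes alone the first pair of these became 0.79 (adjusted p = 0.0294) and 1.03 (adjusted p = 0.00508), and the liver to fat value turned to -0.11 without the fat library of bull 5.

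CPT2, the inner-membrane partner found in all tissues that burn long-chain fatty acids, followed another order. It was highest in liver, from 220.0 through 321 to 408 CPM (307 ± 59.1, SD, n = 10), then in fat, from 69.8 through 75.1 to 130 CPM (83.5 ± 18.9, SD, n = 10), in muscle, from 36.3 through 52.7 to 101 CPM (55.8 ± 18.5, SD, n = 10), and in pituitary, from 24.1 through 31.6 to 36.6 CPM (31.2 ± 4.34, SD, n = 10). Liver was above the other tissues in 10 of 10 animals with no overlap of libraries. The log2 fold change from liver was -1.88 in fat (SE 0.156, adjusted p = 1.08e-13), -2.46 in muscle (adjusted p = 3.32e-17) and -3.29 in pituitary (adjusted p = 5.22e-21). Muscle was below fat in 9 of 10 animals (-0.57, adjusted p = 0.00164), and pituitary was below fat (-1.41, adjusted p = 2.49e-10) and muscle (-0.84, adjusted p = 1.12e-05), the last of which was 0.06 with library sizes alone.

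**Figure D2:**
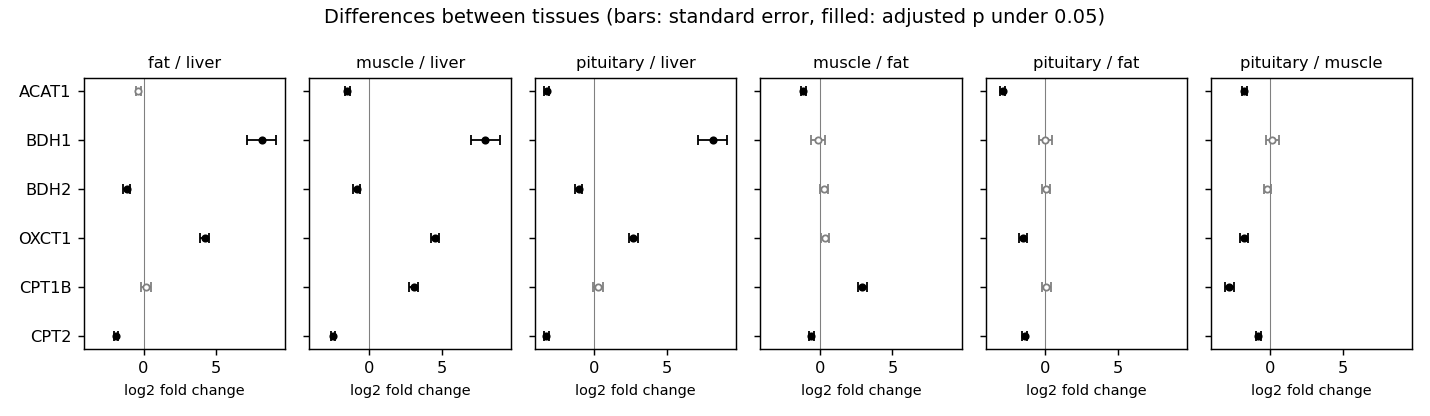
Log2 fold change of each gene (horizontal axis) between each pair of tissues, the first-named over the second, in edgeR's quasi-likelihood fit; bars are standard errors and filled points have an adjusted p under 0.05. BDH1 and OXCT1 lie far to the right in the 3 comparisons with liver, whereas ACAT1 and CPT2 lie to the left in most comparisons.

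Counted over the genes, 4 of 6 were called between liver and fat, where 64.3% of all 13148 genes tested were called, and 6 of 6 between liver and muscle, against 62.1%. Between liver and pituitary 5 of 6 were called, against 64.5%. Between fat and muscle 3 of 6 were called, against 59.6%, between fat and pituitary 3 of 6, against 64.6%, and between muscle and pituitary 4 of 6, against 64.0%. The counts were the same without the liver library labelled bull 3. These shares were near the background, since most genes differed between any pair of these tissues. The scaling mattered for the small differences. The median log2 fold change over all genes from liver was 0.13 for fat and 0.12 for pituitary with TMM, and 0.82 and 0.92 with library sizes alone, so a value within about that distance of 0 can change its sign with the scaling. From fat to muscle that median was -0.13 with TMM and -0.86 with library sizes alone, and from muscle to pituitary 0.03 and 0.89. Of the genes called, 55.1% were higher in fat than in liver (76.8% with library sizes alone), 54.4% higher in pituitary than in liver (78.6%), 45.0% higher in muscle than in fat (19.9%) and 50.7% higher in pituitary than in muscle (79.0%).

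Ratios of reads within a library do not depend on scaling. The ratio of OXCT1 to ACAT1 reads ran from 0.00985 through 0.0130 to 0.0334 in liver, from 0.0475 through 0.329 to 0.694 in fat (from 0.0869 without bull 5), from 0.589 through 0.933 to 1.65 in muscle and from 0.638 through 0.861 to 1.42 in pituitary. No liver library reached a fat library, and muscle and pituitary covered nearly the same range. The ratio of BDH1 to BDH2 reads spread widely in fat (0.112 to 5.74) and muscle (0.0636 to 4.87) and little in pituitary (0.519 to 1.31). The ratio of CPT2 to CPT1B reads was highest in liver and lowest in muscle, with 5.51 to 57.5 CPT2 reads per CPT1B read in liver, 1.56 to 6.62 in fat, 0.861 to 2.11 in pituitary and 0.172 to 0.580 in muscle. Since genes differ in length, these ratios compare tissues only.

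**Figure D3:**
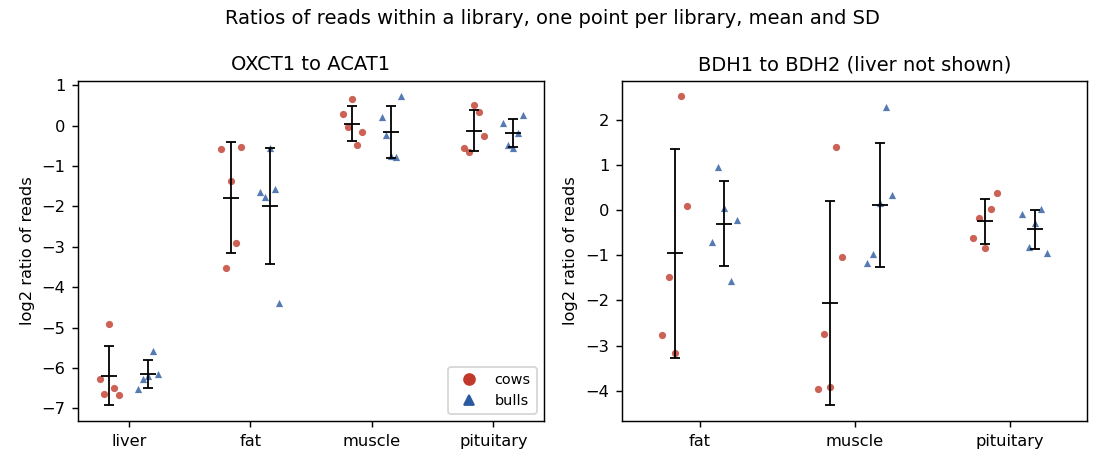
Ratios of reads within a library, as log2 on the vertical axis, for OXCT1 to ACAT1 (left) and BDH1 to BDH2 (right, liver left out because it held at most 4 BDH1 reads per library), by tissue on the horizontal axis; circles are cows, triangles are bulls, and black bars give the mean and SD of 5 libraries. The OXCT1 to ACAT1 ratio is lowest in liver (at most 0.0334), intermediate and wide in fat and near 1 in muscle and pituitary.

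Between males and females, none of the 6 genes was called in any tissue by edgeR's likelihood ratio test. In liver 0 of 6 were called, where 0.175% of all genes were called. The count was also 0 of 6 for fat against 0.114%, for muscle against 0.517% and for pituitary against 0.745%. Over the tissues together (M2) 0 of 6 were called against 1.69%, and for the interaction of sex and tissue 0 of 6 against 0.335%. With so few genes called by sex, a count of 0 among 6 is near the background. At an unadjusted p under 0.05 there were 1 gene in liver, 1 in muscle, 0 in fat, 0 in pituitary, 0 in M2 and 2 for the interaction. The quasi-likelihood test also called 0 of 6 in each, and so did DESeq2 in the tissues and in M2. Without the liver library labelled bull 3 there were again 0 of 6 in liver, in M2 and for the interaction, and without the fat library of bull 5 there were 0 of 6 in fat, in M2 and for the interaction. Cows and bulls overlapped for all 6 genes in all 4 tissues. Over all genes, sexes that did not overlap were seen for 0.548% (liver), 1.29% (fat), 1.65% (muscle) and 1.34% (pituitary). The overlap in liver and its share over all genes use sex by label. They count the liver library labelled bull 3, with female markers, as male, and no share without it is given here.

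The lowest p in liver was that of CPT1B, with 51.3, 62.0, 18.3, 8.0 and 17.1 CPM in cows 1 to 5 and 15.3, 5.91, 5.48, 11.2 and 21.4 CPM in bulls 1 to 5. Cows 1 and 2 stood above the other 8 animals, which overlapped. The log2 fold change of males over females was -1.36 (SE 0.494, unadjusted p = 0.00674 and adjusted p = 0.351, edgeR's likelihood ratio test), and it was -1.20 (adjusted p = 0.570) without the liver library labelled bull 3. When cow 4, the cow with the lowest value, was left out, it was -1.60 (adjusted p = 0.0395), the only one of the 10 omissions that brought it past the threshold, and without cow 2 it was -0.97 (adjusted p = 1). The same omission of cow 4 raised the calls over all genes in liver from 23 to 187. Left in that run was the liver library labelled bull 3, the one closest to that of cow 4.

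In muscle the lowest p was that of BDH2, with 63.9, 91.4, 60.8, 26.9 and 42.1 CPM in the cows and 26.9, 20.4, 47.9, 8.78 and 31.4 CPM in the bulls. Cows 1, 2 and 3 were above all bulls, while cows 4 and 5 lay among them. The log2 fold change was -1.07 (SE 0.419, unadjusted p = 0.0116, adjusted p = 0.265), and again only the omission of cow 4 moved it past the threshold (-1.24, adjusted p = 0.0422), together with a rise of the calls over all genes in muscle from 68 to 553. The interaction of sex and tissue had an unadjusted p of 0.0296 for CPT1B and 0.0446 for BDH2, and neither passed after adjustment (0.458 and 0.552).

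For the other genes the difference between sexes stayed within about its standard error in most tissues. ACAT1 had log2 fold changes of -0.17 (liver), 0.082 (fat), 0.29 (muscle) and -0.074 (pituitary), each smaller than its SE. OXCT1 had -0.24 (liver), -0.30 (fat), -0.10 (muscle) and -0.17 (pituitary), each smaller than its SE, and the fat value was -0.03 without bull 5. CPT2 had -0.09 in liver, -0.33 in fat (SE 0.300), 0.12 in muscle and -0.02 in pituitary. BDH1 had 0.17 in fat (SE 0.714), 0.53 in muscle (SE 0.680) and -0.39 in pituitary (SE 0.319), and with 8 reads in all, no difference in liver was detectable at this depth. With 1 animal left out the BDH1 value ran from 0.24 to 1.64 in muscle, where the highest was without cow 4 (adjusted p = 0.0694), and from -0.10 to 1.46 in fat, where the highest was also without cow 4. In M2 the values were 0.02 for ACAT1, 0.20 for BDH1, -0.26 for BDH2, -0.21 for OXCT1, -0.30 for CPT1B and -0.09 for CPT2, with adjusted p from 0.462 for BDH2 to 0.950 for ACAT1. A p that misses the threshold does not show that the sexes were alike, and the standard errors of 0.193 to 0.714 outside BDH1 in liver leave room for moderate differences.

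**Figure D4:**
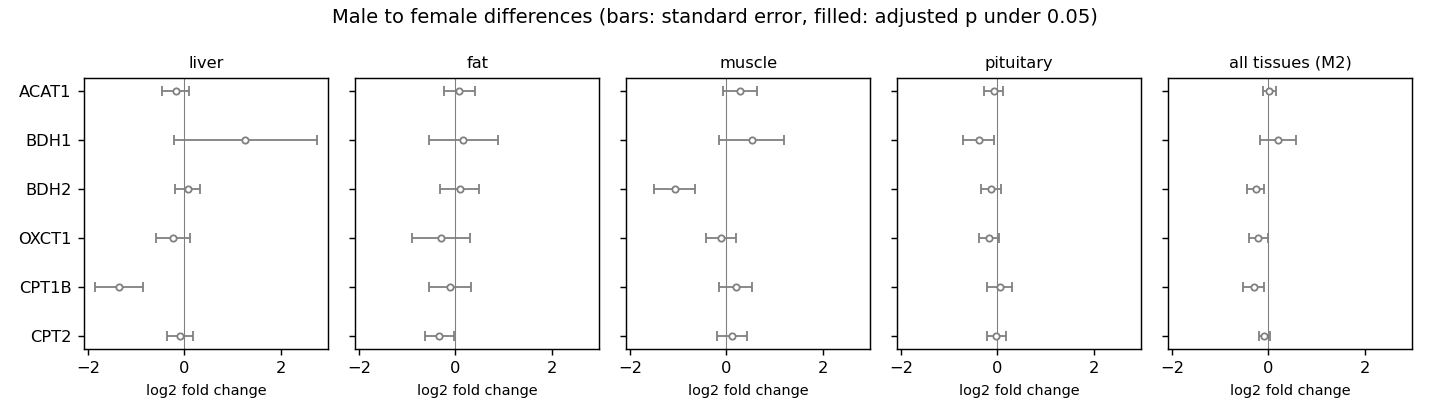
Log2 fold change of males over females for each gene (horizontal axis) in each tissue and over the tissues together, in edgeR's fit; bars are standard errors and no point is filled because no adjusted p was under 0.05. CPT1B in liver (-1.36) and BDH2 in muscle (-1.07) lie farthest to the left.

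None of 7 sex differences of the within-library ratios passed the threshold. The BDH1 to BDH2 ratio in muscle was higher in bulls by 2.18 on the log2 scale (0.12 ± 1.38 in males and -2.06 ± 2.27 in females, SD, n = 5 each; two-sided exact permutation test, p = 0.0952, adjusted p = 0.667 over 7 tests), and by 1.64 to 3.04 with 1 animal left out. For the other 6 tests the adjusted p was 0.921 by the same exact permutation test, and the OXCT1 to ACAT1 ratio differed by 0.04 in liver and by -0.05 in pituitary.

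Of the other enzymes and carriers of ketone bodies, 8 were tested, and 6 to 7 of 8 were called in each tissue comparison, where 59.6% to 64.6% of all genes were called. In fat 4 were higher and 2 lower than in liver, in muscle 5 higher and 2 lower, and in pituitary 2 higher and 4 lower. Muscle had 3 higher and 3 lower than fat, while pituitary had 2 higher and 4 lower than fat, and 3 higher and 3 lower than muscle. AACS, which uses acetoacetate for lipid synthesis in the cytosol, was 1.99 ± 0.535 CPM in liver, 45.4 ± 23.9 CPM in fat, 9.99 ± 5.31 CPM in muscle and 43.8 ± 11 CPM in pituitary (SD, n = 10 each), with a log2 fold change of 4.50 from liver to fat (adjusted p = 6.67e-17). ACAT2, the cytosolic thiolase of sterol synthesis, was highest in liver (198 ± 78.0 CPM) and lowest in muscle (6.02 ± 1.98 CPM, log2 fold change -5.03, adjusted p = 1.20e-20). HMGCLL1 was at most 1 read per library in liver and averaged 3.46 CPM in pituitary. OXCT2, known as the testis form of the transferase, had at most 1 read in any library.

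The monocarboxylate carriers that move ketone bodies and lactate across membranes were divided among tissues. SLC16A1 averaged 92.4 ± 48.3 CPM in liver, 125 ± 52.9 CPM in fat, 209 ± 121 CPM in muscle and 25.1 ± 7.62 CPM in pituitary (SD, n = 10 each). SLC16A7 was high in liver (131 ± 66.6 CPM) and fat (203 ± 85.1 CPM) and low in muscle (14.9 ± 8.13 CPM; log2 fold change from fat -3.78, adjusted p = 2.42e-14). SLC16A3, which exports lactate from glycolytic cells, was mainly in muscle (48.0 ± 33.6 CPM, against 1.11 ± 0.388 CPM in pituitary), as was SLC16A6 (36.8 ± 44.7 CPM, from 0.692 to 149 CPM), which had at most 3 reads per library in fat.

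SLC16A1 was the gene called between sexes among the pathway genes tested. In pituitary it was 1 of 8 enzymes and carriers, with 0 of 9, 16, 9 and 11 in the lists below, beside 0.745% of all genes. With so few genes called by sex, 1 call is near the background. SLC16A1 in pituitary was 34.3, 33.7, 35.7, 28.4 and 24.8 CPM in cows 1 to 5 and 14.7, 22.3, 16.6, 21.9 and 18.6 CPM in bulls 1 to 5, so that every cow was above every bull. Over all genes, the sexes did not overlap in pituitary for 1.34%. Its log2 fold change was -0.73 (SE 0.197, adjusted p = 0.0352, edgeR's likelihood ratio test). It missed the threshold in the quasi-likelihood test (adjusted p = 0.204), with library sizes alone (-0.90, adjusted p = 0.0528) and in 8 of 10 omissions of an animal, with the adjusted p reaching 0.171 without cow 1. In the other tissues its log2 fold change was 0.87 in liver (adjusted p = 0.689), 0.46 in fat (adjusted p = 0.846) and 0.76 in muscle (adjusted p = 0.520), and the interaction did not pass (adjusted p = 0.430).

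**Figure D5:**
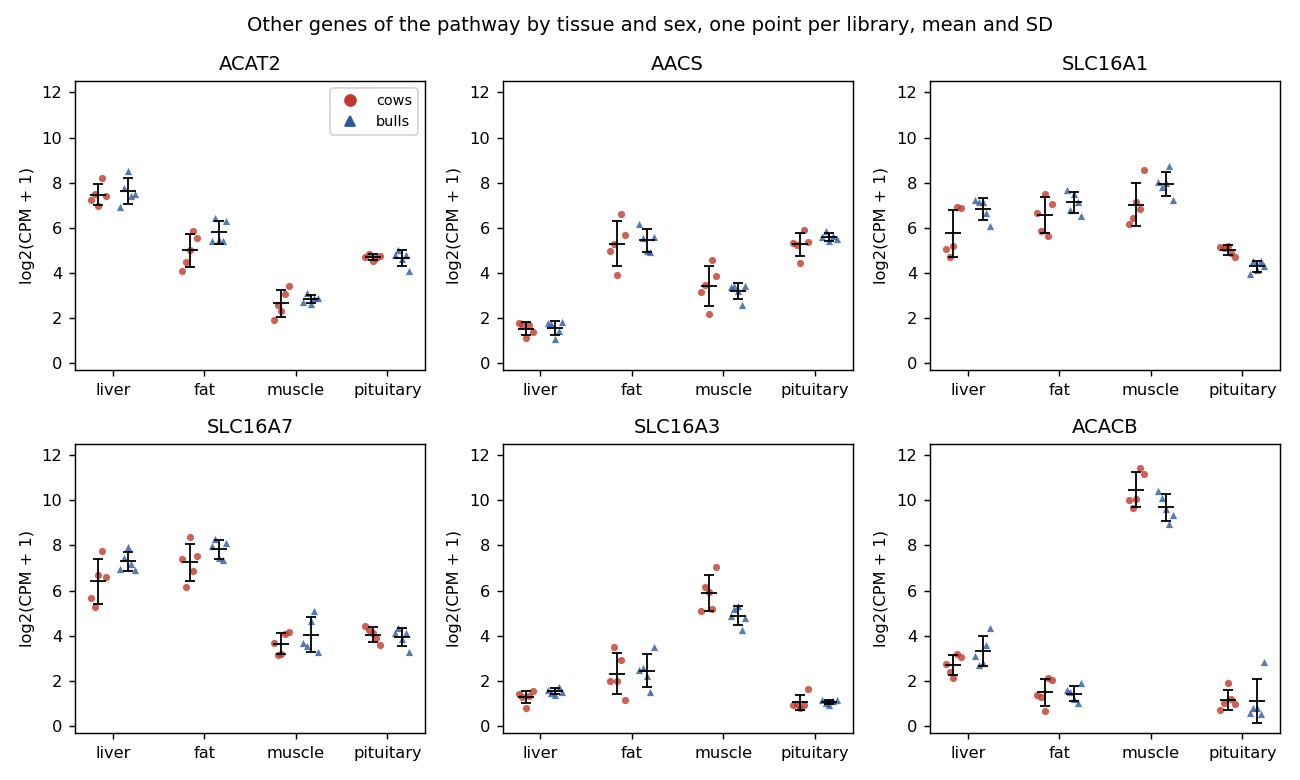
Levels of 6 other genes of the pathway in each library, as log2(CPM + 1) on the vertical axis, by tissue on the horizontal axis; circles are cows, triangles are bulls, and black bars give the mean and SD of 5 libraries. ACACB and SLC16A3 are highest in muscle, and SLC16A1 in pituitary is higher in the 5 cows (24.8 to 35.7 CPM) than in the 5 bulls (14.7 to 22.3 CPM).

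The 16 enzymes of mitochondrial beta oxidation that supply acetyl-CoA were called lower than in liver in 10 cases in fat, 13 in muscle and 16 in pituitary, and in no case higher. Of all genes, 28.9%, 28.0% and 29.4% were called lower than in liver in these tissues, and 35.4%, 34.0% and 35.1% higher. Their median log2 fold changes were -1.0, -1.28 and -3.30, beside 0.13, 0.11 and 0.12 over all genes, and with library sizes alone fat had 6 higher and 7 lower. ACADM, the medium-chain acyl-CoA dehydrogenase, was 264 ± 48.4 CPM in liver, 21.5 ± 9.88 CPM in fat, 99.7 ± 30.2 CPM in muscle and 14.6 ± 1.91 CPM in pituitary (SD, n = 10 each). ECHS1, the short-chain enoyl-CoA hydratase, was 1017 ± 104 CPM in liver and 82.4 ± 20.9 CPM in pituitary (log2 fold change -3.64, adjusted p = 7.88e-21). ACAA2, the mitochondrial thiolase, was 680 ± 209 CPM in fat and 62.1 ± 6.56 CPM in pituitary (-3.44, adjusted p = 1.34e-20). ACADVL, the very-long-chain acyl-CoA dehydrogenase, was 638 ± 203 CPM in muscle and 351 ± 120 CPM in fat, and its log2 fold change from fat to muscle was 0.86 (adjusted p = 0.000668).

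For the rest of the carnitine shuttle and fatty acid activation, 9 of 11 named genes were found. Fat had 2 higher and 5 lower than liver, muscle 4 and 4, and pituitary 3 and 5, so that 7, 8 and 8 of 9 were called, beside 64.3%, 62.1% and 64.5% of all genes. CROT, which forms medium-chain acylcarnitines in peroxisomes, was 950 ± 328 CPM in liver and 11.9 ± 5.35 CPM in muscle (SD, n = 10 each; log2 fold change -6.37, adjusted p = 2.08e-23). CRAT, the short-chain carnitine acetyltransferase, was highest in muscle (717 ± 230 CPM, against 65.4 ± 11.7 CPM in pituitary), and SLC25A20, the carrier between CPT1 and CPT2, was 122 ± 26.5 CPM in liver, 77.6 ± 26.4 CPM in fat, 86.2 ± 30.8 CPM in muscle and 23.1 ± 7.14 CPM in pituitary.

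Leucine and isoleucine breakdown, which yields the substrate of ACAT1 and other precursors, had 9 of 10 named genes. In fat 3 were higher and 5 lower than in liver, in muscle 1 and 6, and in pituitary 1 and 6. These are 8, 7 and 7 of 9 called, beside 64.3%, 62.1% and 64.5% of all genes, of which slightly more were called higher than lower than in liver. HSD17B10 was 709 ± 157 CPM in liver and 40.4 ± 18.2 CPM in pituitary (SD, n = 10 each), whereas BCAT2, the mitochondrial aminotransferase, was 7.63 ± 4.31 CPM in liver and 118 ± 116 CPM in fat (log2 fold change 4.0).

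Regulators of CPT1 and ketogenesis had 11 of 12 named genes. Muscle had 7 higher and 0 lower than liver, fat 5 and 3, and pituitary 0 and 7. The shares called against liver (7, 8 and 7 of 11) were near those of all genes (62.1%, 64.3% and 64.5%), while 34.0% of all genes were called higher in muscle and 29.4% lower in pituitary. From fat to muscle 7 were higher and 2 lower (9 of 11, beside 59.6%). From fat to pituitary 1 was higher and 9 lower (10 of 11, beside 64.6%). From muscle to pituitary 0 were higher and 11 lower (11 of 11, beside 64.0%). Of all 13148 genes, 3528 were called higher and 4307 lower from fat to muscle. From fat to pituitary these counts were 4318 and 4182, and from muscle to pituitary 4271 and 4148. With library sizes alone they were 1772 and 7122, 4653 and 3710, and 7299 and 1942, so such splits depend on the scaling. ACACB, which makes the malonyl-CoA that inhibits CPT1, was 1233 ± 733 CPM in muscle and at most 19.5 CPM in any library of another tissue (log2 fold change from liver 7.28, adjusted p = 2.51e-17). ACACA, its cytosolic partner in fatty acid synthesis, was highest in fat (1241 ± 1016 CPM). PPARA, the fatty-acid-sensing receptor that induces the CPT genes, was 110 ± 56.3 CPM in liver and 89.4 ± 45.0 CPM in muscle (adjusted p = 0.401), and lower in fat (11.4 ± 7.46 CPM) and pituitary (6.60 ± 2.80 CPM; SD, n = 10 each). PDK4, one of its known targets, reached 5575 ± 4462 CPM in muscle.

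Among 10946 genes with a mean of at least 1 CPM, the pattern over the 40 libraries most like that of OXCT1 was that of ACADSB, of isoleucine breakdown (Pearson's r of log2(CPM + 1) = 0.966), followed by TSPAN18 (0.952) and CYYR1 (0.947). ACADSB averaged 7.68 CPM in liver, 105 CPM in fat, 118 CPM in muscle and 43.0 CPM in pituitary. For ACAT1 the nearest genes were AOC3 (0.954), ACAA2 (0.950) and ACSM1 (0.949), and for CPT2 they were CIDEB (0.964), CLEC4G (0.962) and SHMT1 (0.961). CPT1B was nearest to TMEM143 (0.935), NEURL2 (0.920) and WIPI1 (0.916), and BDH1 to PRDX2 (0.907), PCBP4 (0.900) and LTBP3 (0.899). BDH2 had no close match, with SLC19A3 (0.748), GSR (0.725) and GLT1D1 (0.715). These values describe mainly the differences between 4 tissues, since libraries of a tissue share its level.

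Among the 6 genes themselves, ACAT1 and CPT2 were most alike over the libraries (r = 0.831), and BDH1 and CPT2 were most opposed (r = -0.809). Within a tissue, the levels of an animal were compared across genes and tissues in 88 relations over 10 animals, chosen after the counts had been seen. None passed after adjustment, and 9 had an unadjusted permutation p under 0.05 for Pearson's r. The lowest p for Pearson's r was that of ACAT1 and CPT2 in pituitary (r = -0.821, permutation p = 0.00413, adjusted p = 0.175; rho = -0.855, permutation p = 0.00289, adjusted p = 0.127), opposite in sign to their r over the 40 libraries, and r was -0.812 without the 2 libraries farthest from the median. By rho the lowest p was that of OXCT1 in liver and muscle, paired by label (r = 0.748, permutation p = 0.00500, adjusted p = 0.175, and rho = 0.903, permutation p = 0.000830, adjusted p = 0.0730). Here r was 0.705 without the 2 libraries farthest from the median. The pair labelled bull 3 joined a liver library with 8694 XIST reads to a muscle library with 1, so it cannot be taken as the same animal. Relations between liver and another tissue were not run without that pair alone. BDH1 in fat and muscle had r = 0.724 (permutation p = 0.0202, adjusted p = 0.285; rho = 0.636, permutation p = 0.0541, adjusted p = 0.595), which fell to 0.467 without 2 libraries.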

How the data were processed

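Total RNA of 4 tissues from 10 Korean cattle was sequenced as paired-end poly-A libraries. The authors trimmed reads with Trimmomatic, aligned them to UCSC bosTau7 with Tophat2 and Bowtie2, and deposited raw counts per gene from HTSeq for uniquely aligned reads. Whether strand was used is not given in the sources used here, and in RefSeq's ARS-UCD2.0 annotation BDH2 lies beside SLC9B2 and CPT1B beside CHKB. A row without a gene name (0.114% to 2.69% of reads on genes) and 422 genes without a read were left out, leaving 13148.

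Sex in each tissue (M1), over the tissues (M2) and its interaction with tissue were tested with edgeR 4.0.16 (TMM, likelihood ratio test) in R 4.3.3. Tissues were compared with the quasi-likelihood test with sex in the model, over 40 libraries. Benjamini-Hochberg adjustment ran over all genes with a threshold of 0.05. Log2 fold changes used a prior count of 0.125, and ratios had 0.5 reads added. Scripts were tested on simulated data. Alternatives were the quasi-likelihood test, DESeq2 1.42.0, limma 3.58.1 (voom), RLE factors, library sizes alone, filterByExpr, the animal as a block and each animal left out. By the labels each library is a separate animal and tissue, which was not tested for the liver libraries labelled bull 3 and cow 4. The genes and lists were chosen with earlier results of these data known. Other genes of ketone body synthesis are not reported here. Named were all 6 genes, pathway genes called by sex, per list the gene with the most reads in a tissue and the largest differences of a tissue pair, and the 3 genes most alike to each. Marker lists (liver, fat, muscle, pituitary, leukocyte, mesothelium and epithelium, blood vessel and blood) were summed per library. Leukocyte marker sums ran from 19.6 to 725 CPM, mesothelium and epithelium sums from 7.95 to 943 CPM and blood vessel and blood sums from 63.7 to 2153 CPM, and their part in the results was not tested.

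Animals link the tissues through their ear tags in the labels. Deviations of libraries of an animal from their group means correlated with a median r of 0.208 over 60 pairs (-0.450 to 0.560), with 38 over 0.1.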

Additional observations from a re-analysis of the deposited data

Results flagged for a closer look

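In 7 of 47 groups of 5 libraries, 1 library stood apart from the other 4 by Dixon's test on CPM. Chance flags about 1 in 20 groups where values are normally distributed. CPM can be skewed towards high values, so the 7 groups are not read as an excess over chance. No such test on log2 values is given here. BDH1 was high in cow 4 in both fat (89.1 CPM) and muscle (70.9 CPM), and in the liver of bull 2 (0.716 CPM, 4 reads). CPT2 was high in the muscle of bull 4 (101 CPM) and low in the liver of cow 4 (247 CPM). CPT1B was high in the pituitary of cow 5 (41.7 CPM), and OXCT1 was low in the liver of bull 1 (5.72 CPM).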

How the results depend on the processing

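The counts of genes called between tissues and by sex stayed within 1.5 times under every alternative run, except that leaving out cow 4 gave 1 call by sex in liver and 1 in muscle, so that both ranged from 0 to 1. With the replicate block (the animal) no count for the interaction or between tissues changed, 0 for the interaction included. The ratio of CPT1A to CPT1B was not run, since CPT1A was not analysed here. Over all genes, the quasi-likelihood test called by sex 1 gene in liver, 3 genes in fat, 7 in muscle, 12 for the pituitary, 77 in M2 and 0 for the interaction, where the likelihood ratio test called 23, 15, 68, 98, 222 and 44, DESeq2 called 28 in fat, and voom with the animal as a block called 8 in M2. Library sizes alone gave 56 calls in pituitary (32 higher in males, where TMM gave 73 of 98) and 717 in M2 (37 higher in males, where TMM gave 44 of 222), filterByExpr gave 13 in liver and 6 in fat, and without the fat of bull 5 the interaction had 74.

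Library sizes alone turned the sign of 10 values, of which only CPT2 from muscle to pituitary (0.057) had passed the threshold. The others were BDH2 by sex in liver (-0.13) and fat (-0.11), ACAT1 by sex in fat (-0.069) and in M2 (-0.11), CPT1B by sex in pituitary (-0.045), ACAT1 from liver to fat (0.32), BDH2 (-0.43) and OXCT1 (-0.46) from fat to muscle, and BDH2 from muscle to pituitary (0.65). Voom with the block gave ACAT1 in M2 -0.020, and without the fat of bull 5 CPT1B from liver to fat was -0.11. ACAT1 from liver to fat passed with RLE factors (-0.47, adjusted p = 0.0263), DESeq2 (adjusted p = 0.0147) and without bull 4 (adjusted p = 0.0489). The cause was not tested.

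With each animal left out, the sex difference in liver ran from -0.86 to 3.45 for BDH1, -0.047 to 0.20 for BDH2, -0.37 to 0.13 for OXCT1 and -0.24 to 0.0076 for CPT2. In fat it ran from -0.018 to 0.21 for ACAT1, -0.10 to 1.46 for BDH1, -0.13 to 0.28 for BDH2, -0.56 to 0.19 for OXCT1 and -0.49 to 0.047 for CPT1B. In muscle it ran from -0.049 to 0.46 for ACAT1, -0.22 to 0.093 for OXCT1, -0.073 to 0.37 for CPT1B and -0.19 to 0.23 for CPT2, and in pituitary from -0.19 to 0.018 for ACAT1, -0.070 to 0.35 for CPT1B and -0.099 to 0.058 for CPT2. In M2 it ran from -0.048 to 0.11 for ACAT1 and -0.058 to 0.88 for BDH1. Between tissues, BDH1 ran from -0.30 to 0.079 (fat to muscle), -0.21 to 0.58 (fat to pituitary) and -0.069 to 0.61 (muscle to pituitary), and from fat to pituitary BDH2 ran from -0.042 to 0.15 and CPT1B from -0.10 to 0.19. The sex difference of the OXCT1 to ACAT1 ratio ran from -0.10 to 0.36 in liver, -0.64 to 0.40 in fat and -0.19 to 0.10 in pituitary.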
